A study of Homo sapiens with 80 samples.

Results

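Interleukin-1 signalling was described here through 9 genes, chosen by symbol with earlier results of these counts known: the receptors and receptor-like genes IL1R1, IL1R2, IL1RAP and IL1RL1, the receptor antagonist IL1RN, the cytokines IL1A, IL1B and IL18, and the inflammasome sensor NLRP3. All 9 had a row among the 58735 genes of each RNA-seq table, 6 among the 17463 genes of the DGE table and 5 among the 17792 genes of the PRO-seq table. IL1A, IL1B and IL18 were not analysed here in DGE, and IL1RL1, IL1RN, IL1B and IL18 were not analysed here in PRO-seq.

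Both cell lines, SU-DHL-1 and KI-JK, were grown from ALK-positive anaplastic large cell lymphomas, tumours of T-cell origin that depend on an ALK fusion kinase. Regrown SU-DHL-1 cells were 3 pools that had been selected for resistance in rising lenalidomide and then held without drug for at least 2 months, and parental cells were unselected SU-DHL-1. PRO-seq, which reads RNA still attached to engaged polymerase, set the 3 regrown pools against 3 parental libraries. DGE, which sequences transcript ends, set 2.5 µM lenalidomide for 18 h against DMSO in regrown and in parental cells. RNA-seq set ZFP91 knockout against no knockout in both backgrounds: all of these cells carried Cas9 and an inducible guide RNA against ZFP91, and the knockout cells received 1 µg/ml doxycycline for 96 h while the others received none. Doxycycline itself was therefore part of that difference. RNA-seq also set a CSNK2B overexpression vector against an empty vector in parental SU-DHL-1 and in KI-JK, which were kept in 10% and 20% serum. Every group had 3 libraries. For parental and vector groups the labels give replicate numbers and do not say that the cultures were separate, so p-values there measure the spread between these libraries, which may be technical.

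Interleukin-1 binds IL1R1, which signals only after it recruits the accessory chain IL1RAP. IL1R2 binds the cytokine without signalling and acts as a decoy, IL1RN occupies IL1R1 without activating it, and IL1RL1 is the receptor for IL-33, which shares the IL1RAP chain. NLRP3 is a cytosolic sensor that assembles the inflammasome, in which caspase-1 processes the precursors of IL-1 beta and IL-18. Lenalidomide brings zinc finger proteins, ZFP91 among them, to the ubiquitin ligase adaptor cereblon for degradation, and CSNK2B encodes the regulatory subunit of casein kinase 2.

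The promoters of the 3 genes that set the pattern below are shown from RefSeq on GRCh38.p14, as 250 bases before and 50 bases after the annotated start site on the plus strand. IL1R1 lay at chr2:102104354-102104653, NLRP3 at chr1:247415923-247416222 and IL1RAP at chr3:190513835-190514134. These start sites were 0, 0 and 5 bases from the starts of the intervals in which PRO-seq reads were counted, and 4 windows were listed for IL1R1. Capitals mark the only match among 3 searched motifs.
IL1R1: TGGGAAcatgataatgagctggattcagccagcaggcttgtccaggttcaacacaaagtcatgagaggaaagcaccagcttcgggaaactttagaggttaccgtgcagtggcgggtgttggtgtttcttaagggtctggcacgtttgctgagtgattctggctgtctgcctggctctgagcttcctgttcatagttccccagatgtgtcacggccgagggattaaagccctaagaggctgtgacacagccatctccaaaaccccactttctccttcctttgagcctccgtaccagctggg
NLRP3: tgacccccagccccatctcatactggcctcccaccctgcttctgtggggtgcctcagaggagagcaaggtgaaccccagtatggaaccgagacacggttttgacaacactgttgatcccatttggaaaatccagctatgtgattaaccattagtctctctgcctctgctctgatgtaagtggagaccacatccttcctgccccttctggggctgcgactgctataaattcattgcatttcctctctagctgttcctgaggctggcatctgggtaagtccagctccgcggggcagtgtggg
IL1RAP: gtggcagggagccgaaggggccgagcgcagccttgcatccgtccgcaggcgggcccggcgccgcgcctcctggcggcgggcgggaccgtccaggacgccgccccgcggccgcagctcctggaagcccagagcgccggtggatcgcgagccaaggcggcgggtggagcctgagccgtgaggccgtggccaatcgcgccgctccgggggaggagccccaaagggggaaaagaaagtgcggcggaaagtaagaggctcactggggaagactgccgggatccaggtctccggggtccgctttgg
The motifs, searched on both strands, were TGANTCA (bound by AP-1), TTCNNNGAA (bound by STAT factors) and TGGGAA (the core of Ikaros sites), and no match overlapped another. TGGGAA occurred once in the IL1R1 window, at its first base, and neither of the other 2 promoters held any of the 3 motifs. Of 34796 distinct promoter windows, 24% held TGGGAA, 7.725% held TGANTCA and 7.67% held TTCNNNGAA. The G and C content was 52.7% for IL1R1, 54.0% for NLRP3 and 73.7% for IL1RAP.

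Libraries held 33.5 to 47.2 M counts in PRO-seq, 41571 to 395827 in DGE, 15.4 to 23.1 M in the ZFP91 RNA-seq, and 14.4 to 24.1 M and 23.1 to 28.9 M in the SU-DHL-1 and KI-JK vector RNA-seq. The lowest DGE total was parental lenalidomide replicate 3, in which IL1R1 rested on 2 counts. CSNK2B, the vector gene, was higher with its vector by a log2 fold change of 3.06 ± 0.05 in SU-DHL-1 and 2.19 ± 0.06 in KI-JK. ZFP91 itself had log2 fold changes of -0.12 ± 0.10 (adjusted p = 0.394) in regrown and -0.34 ± 0.08 (adjusted p = 0.158) in parental knockout cells, so its RNA did not check the knockout labels. Of the markers of the labelled lymphoma, TNFRSF8 (CD30), ALK and CD3D were present in every RNA-seq library. The T-cell markers CD3E, CD2, CD4 and CD7 were under 1 CPM in each of them. Myeloid markers were mixed: CD14 and LYZ were also under 1 CPM. The summed level of all 9 was 323 to 338 CPM in parental libraries without doxycycline, most of it from CD163.

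Which interleukin-1 genes were transcribed differently in the regrown pools? Nascent transcription of IL1R1 and NLRP3 was several-fold lower in regrown than in parental cells, IL1R2 was moderately lower, and IL1RAP did not pass the test. Values here are CPM, counts scaled to a common library total, and changes are log2 fold changes ± SE from edgeR, with p-values adjusted over all genes tested and a threshold of 0.05. IL1R1 had 136.5, 105.9 and 192.1 CPM in regrown pools, against 846.6, 1014.4 and 945.4 CPM in parental libraries. Every parental library stood far above every regrown pool, and the fitted change was -2.70 ± 0.21 (adjusted p = 1.129e-05). NLRP3 had 52.2, 26.8 and 28.1 CPM in regrown pools, against 167.8, 141.3 and 180.0 CPM in parental libraries, a change of -2.2 ± 0.23 (adjusted p = 7.495e-05). Its groups did not overlap either, with pool 1 the highest of the regrown pools.

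IL1R2, the decoy receptor gene, had 133.1, 99.7 and 85.3 CPM in regrown pools, against 153.8, 181.1 and 193.4 CPM in parental libraries. The groups were apart but close, and the change was -0.74 ± 0.16 (adjusted p = 0.005695). IL1RAP had 556.1, 423.6 and 375.2 CPM in regrown pools, against 532.2, 706.5 and 561.3 CPM in parental libraries. These ranges overlapped through pool 1, and the change of -0.42 ± 0.18 missed the threshold (adjusted p = 0.0997), whereas DESeq2 gave 0.0333 and a fit without pool 1 gave -0.62 with 0.0172. IL1A, which encodes IL-1 alpha, was the one member that was higher, from very few reads: 62, 103 and 150 counts in regrown pools, against 70, 33 and 40 counts in parental libraries. Its change of 0.98 ± 0.32 (adjusted p = 0.0399) lost its call without either of 2 pools (0.0796 without pool 2 and 0.0988 without pool 3) or either of 2 parental libraries (0.160 without replicate 2 and 0.130 without replicate 3). In all, 4 of the 5 counted members passed the test, and 30.2% of the 16456 genes tested did so (14% rose and 16.2% fell).

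Per kilobase of counted interval, IL1R1 averaged 2.03 ± 0.61 CPM per kb in regrown pools and 13.1 ± 1.2 CPM per kb in parental libraries (SD, n = 3 each). The order of members by this density was IL1R1, IL1R2, NLRP3, IL1RAP and IL1A in parental cells. It was IL1R2, IL1RAP, IL1R1, NLRP3 and IL1A in regrown pools, where IL1R2 at 3.69 ± 0.85 and IL1RAP at 3.29 ± 0.68 CPM per kb did not differ beyond their spread (SD, n = 3). In parental cells NLRP3 at 4.95 ± 0.60 and IL1RAP at 4.37 ± 0.68 CPM per kb also lay within their spread of each other (SD, n = 3). Libraries also overlapped there between IL1R2 (5.36, 6.31 and 6.74) and NLRP3 (5.10, 4.29 and 5.47). In regrown pools IL1R1 (1.92, 1.49 and 2.70) overlapped NLRP3 (1.58, 0.81 and 0.85), and IL1RAP (4.05, 3.08 and 2.73) lay only just above IL1R1. IL1A, at 0.242 ± 0.063 CPM per kb in regrown pools and 0.122 ± 0.044 CPM per kb in parental libraries (SD, n = 3 each), was far below the rest.

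**Figure D1:**
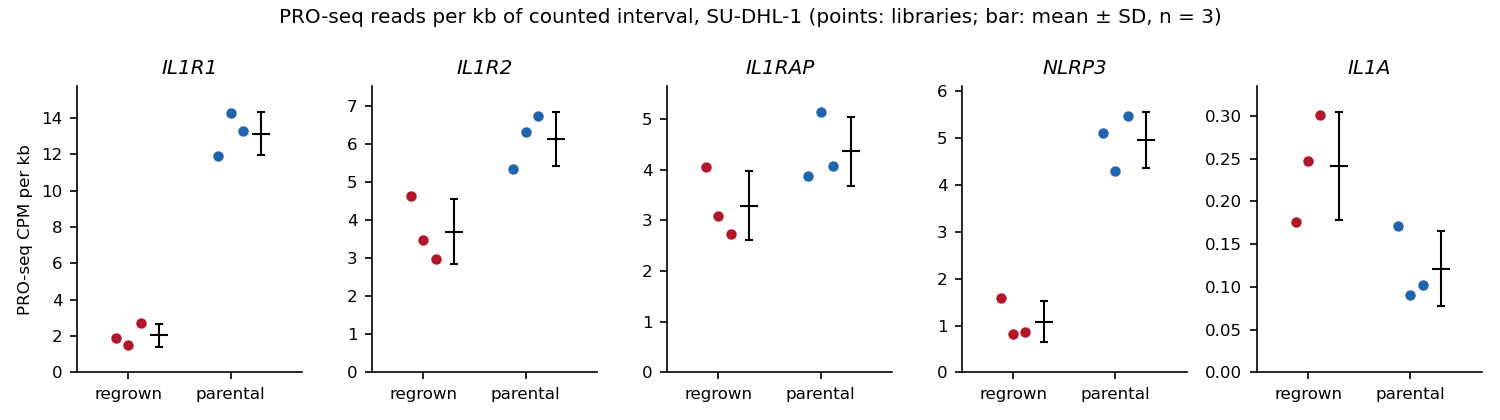
PRO-seq reads per kilobase of counted interval (y axis, CPM per kb, from 0) for 5 members in regrown and parental SU-DHL-1, with each point a library and the bar the mean ± SD of 3. IL1R1 averaged 2.03 CPM per kb in regrown pools and 13.1 in parental libraries, with no overlap, while the IL1RAP libraries overlapped.

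Several receptor genes lie close together on chromosome 2 (hg38, plus strand), and those counted in PRO-seq did not move together. IL1RL1 was not analysed here in PRO-seq and is missing from the row that follows. In order along the chromosome, the counted intervals were IL1R2 at chr2:101999709-102028417, IL1R1 at chr2:102104604-102175817, IL1RL2 (a receptor for IL-36) at chr2:102186710-102240002, IL18R1 (the IL-18 binding chain) at chr2:102355796-102398758 and IL18RAP (the IL-18 accessory chain) at chr2:102418570-102452565. Along this row the nascent changes were -0.74 ± 0.16, -2.70 ± 0.21, -0.48 ± 0.12, 0.22 ± 0.12 and 3.66 ± 0.23, of which that of IL18R1 missed the threshold (adjusted p = 0.195). IL18RAP averaged 18.4 ± 3.6 CPM in regrown pools and 1.45 ± 0.26 CPM in parental libraries (SD, n = 3 each). The 24 tested genes nearest to IL1R1 had a median change of -0.40, with 11 lower and 1 higher past the threshold. Those around NLRP3 had a median of 0.09, with 3 lower and 1 higher. IL1RAP, on chromosome 3, was lower than its surroundings: its 24 neighbours had a median change of 0.91, with 16 higher and 1 lower.

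Did the amount of RNA follow? Among regrown and parental cells without doxycycline, RNA-seq gave IL1R1 and NLRP3 falls close to those of nascent RNA, a fall of IL1RL1, a small fall of IL1R2, and a rise of IL1RAP. IL1R1 had 59.8, 63.3 and 64.2 CPM in regrown libraries, against 395.2, 437.1 and 391.5 CPM in parental libraries, a change of -2.61 ± 0.09 (adjusted p = 1.607e-10). The groups did not overlap, and the regrown libraries lay close together. NLRP3 had 13.5, 10.9 and 10.8 CPM in regrown libraries, against 53.3, 56.1 and 48.9 CPM in parental libraries, a change of -2.07 ± 0.13 (adjusted p = 2.188e-08). IL1RAP had 264.8, 246.2 and 284.8 CPM in regrown libraries, against 121.5, 141.8 and 111.4 CPM in parental libraries. Every regrown library was above every parental one, and the change was 1.19 ± 0.10 (adjusted p = 5.487e-07).

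IL1RL1, the IL-33 receptor gene, had 3.72, 2.06 and 0.987 CPM in regrown libraries, against 9.27, 13.9 and 8.28 CPM in parental libraries, a change of -2.10 ± 0.36 (adjusted p = 0.000296). The regrown values rested on 17 to 73 counts. IL1R2 averaged 55.8 ± 6.3 CPM in regrown libraries and 83.4 ± 2.8 CPM in parental libraries (SD, n = 3 each), a change of -0.48 ± 0.10 (adjusted p = 0.00144). IL1RN, the antagonist, was scarce: 51, 18 and 43 counts in regrown libraries, against 4, 8 and 8 counts in parental libraries, a change of 2.53 ± 0.58 (adjusted p = 0.00261). In these libraries longer and shorter genes differed between the groups. A length score, the median log2 level of the longest 20% of genes minus that of the shortest 20%, each gene relative to the mean of all 12 libraries, was 0.310, 0.156 and 0.487 in regrown and 0.0125, -0.0313 and -0.2543 in parental libraries without doxycycline. With that score as a covariate, a fit added after the data were seen, the changes of IL1R2 (-0.25, adjusted p = 0.318) and IL1RN (1.55, adjusted p = 0.431) missed the threshold, and the other 4 members kept theirs. The scores did not overlap between these groups, so that fit cannot fully separate score from group. Before that fit, 6 members passed the test of the 6 that had enough reads to be tested, and 43.7% of 13379 genes did (22.6% rose and 21.1% fell).

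Of the 5 members tested in both assays, IL1RAP was the one whose RNA and nascent changes differed past the threshold. The difference between its RNA-seq and PRO-seq changes, in a joint fit that was also added after the data were seen, was 1.49 ± 0.20 (adjusted p = 0.000319). For IL1R1 it was -0.03 ± 0.22 (adjusted p = 0.9999), for NLRP3 0.01 ± 0.29 (adjusted p = 0.9999) and for IL1R2 0.14 ± 0.21 (adjusted p = 0.706). IL1A, from very few RNA-seq reads, had a wide -1.66 ± 1.05 (adjusted p = 0.289). The median over all genes was -0.17, and the length score was not a covariate here. In this fit 18.8% of 16313 genes passed, 5.92% with a higher and 12.9% with a lower value in RNA-seq. The libraries of the 2 assays came from different preparations, and only the RNA-seq cells carried Cas9 and the guide, so assay and preparation cannot be told apart. In RNA-seq the 24 genes nearest IL1RAP had a median change of 0.96, with 17 higher and 3 lower, close to its own 1.19.

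**Figure D2:**
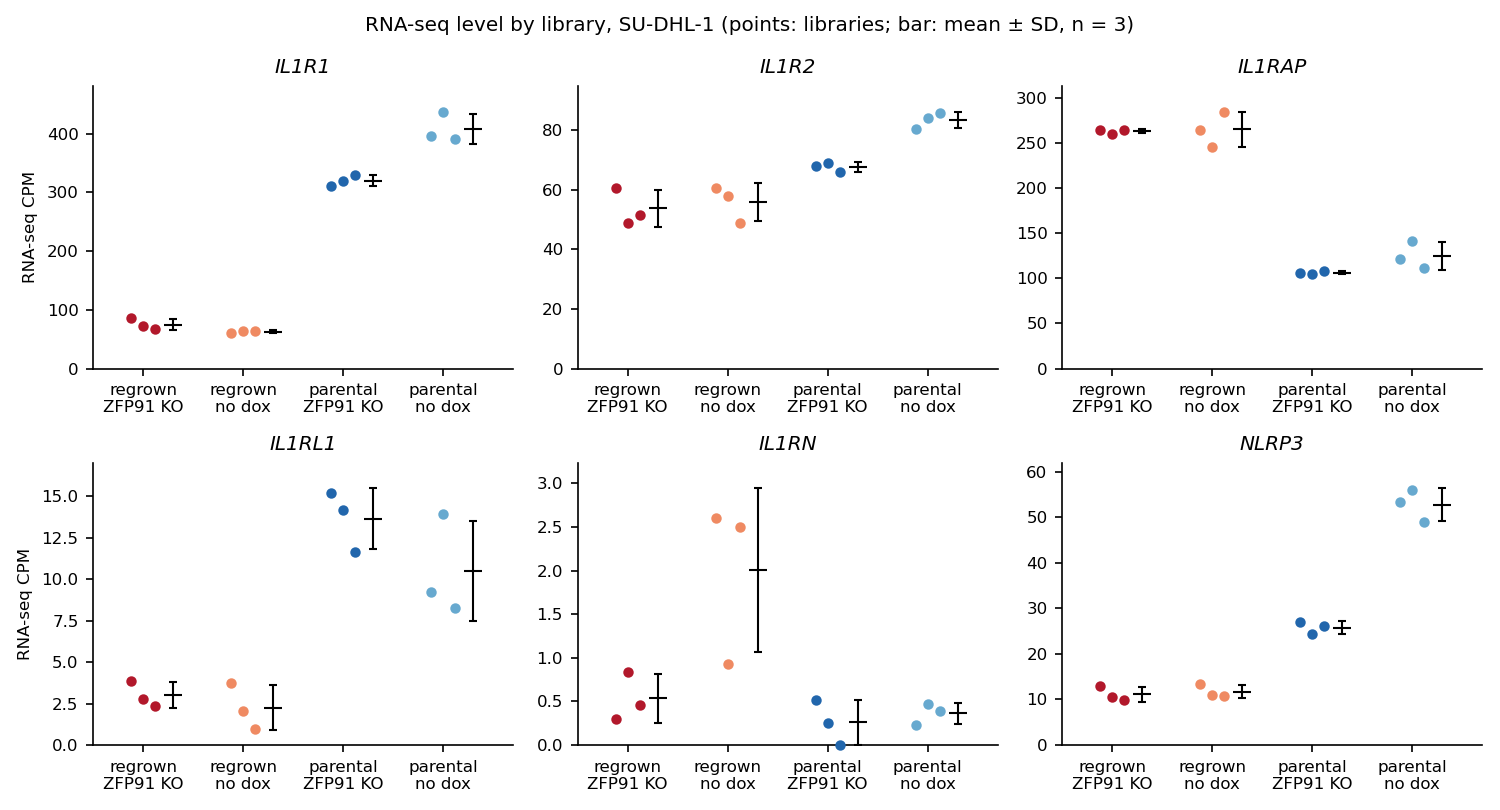
RNA-seq level (y axis, CPM, from 0) of 6 members in regrown and parental SU-DHL-1 with ZFP91 knockout (KO) or without doxycycline (no dox), with each point a library and the bar the mean ± SD of 3. IL1R1 and NLRP3 were lower and IL1RAP higher in regrown than in parental cells under both conditions.

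After ZFP91 knockout the regrown and parental cells differed in the same members. IL1R1 had 85.2, 72.5 and 66.5 CPM in regrown knockout libraries, against 310.2, 319.7 and 330.1 CPM in parental knockout libraries, a change of -2.11 ± 0.10 (adjusted p = 1.024e-06). NLRP3 had 13.0, 10.5 and 9.83 CPM in regrown knockout libraries, against 27, 24.3 and 26.1 CPM in parental knockout libraries, a change of -1.22 ± 0.13 (adjusted p = 8.78e-05). IL1RAP averaged 263 ± 2 CPM in regrown knockout and 106 ± 2 CPM in parental knockout libraries (SD, n = 3 each), a change of 1.30 ± 0.07 (adjusted p = 3.013e-06). IL1RL1 changed by -2.18 ± 0.20 (adjusted p = 4.416e-05) and IL1R2 by -0.34 ± 0.09 (adjusted p = 0.0182). The call of IL1R2 was lost without regrown knockout replicate 2 (-0.27, adjusted p = 0.0969), regrown knockout replicate 3 (-0.32, 0.0785) or parental knockout replicate 3 (-0.36, 0.0532). All 5 members that could be tested passed, as did 38.4% of 13444 genes (18.6% rose and 19.8% fell). IL1RN, with 33 counts over the regrown and 13 over the parental knockout libraries, was below the filter.

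What differed between cells given doxycycline for ZFP91 knockout and cells given none? In parental cells NLRP3 was the one member that passed the test, and it fell, with 27, 24.3 and 26.1 CPM in knockout libraries, against 53.3, 56.1 and 48.9 CPM without doxycycline. The groups were far apart, the change was -1.0 ± 0.09 (adjusted p = 0.00448), and 0.427% of 13354 genes passed in this comparison (0.0599% rose and 0.367% fell). Without parental replicate 2 of the cells given no doxycycline the change was -0.97 with an adjusted p of 0.0579, and no gene passed. IL1R1 averaged 320 ± 10 CPM in knockout and 408 ± 25 CPM in other parental libraries (SD, n = 3 each). Its change of -0.32 ± 0.08 missed the threshold (adjusted p = 0.216), and it passed with DESeq2 (0.0241) and with the length score as a covariate (2.615e-05). IL1R2 (-0.27 ± 0.08, adjusted p = 0.315) and IL1RAP (-0.20 ± 0.10, adjusted p = 0.621) also missed it and passed with that covariate (0.00323 and 0.0404). IL1RL1 changed by 0.42 ± 0.20 (adjusted p = 0.639).

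In regrown cells the same knockout left NLRP3 at 13.0, 10.5 and 9.83 CPM in knockout libraries, against 13.5, 10.9 and 10.8 CPM without doxycycline. The pools overlapped, and the change was -0.12 ± 0.16 (adjusted p = 0.603). IL1R1 averaged 74.7 ± 9.5 CPM in knockout and 62.4 ± 2.3 CPM in other regrown libraries (SD, n = 3 each), a change of 0.22 ± 0.09 (adjusted p = 0.0988). Only IL1RN passed, from few reads: 7, 16 and 10 counts in knockout libraries, against 51, 18 and 43 counts without doxycycline, a change of -1.96 ± 0.54 (adjusted p = 0.0159). Its call was lost without knockout pool 1 (0.0887), knockout pool 3 (0.0676) or untreated pool 1 (0.0690), and with the length score as a covariate (-0.33, adjusted p = 0.967). The length score itself was -0.164, -0.166 and -0.074 in knockout pools, against 0.310, 0.156 and 0.487 in untreated pools. These scores did not overlap, so the covariate fit cannot separate score from group. Without the covariate 1 of 6 tested members passed, against 31.9% of 13107 genes (16.3% rose and 15.7% fell).

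The test for a difference between the 2 backgrounds in their response to knockout passed for NLRP3 and IL1R1, but depended on single libraries. The length score was not tried as a covariate in this test. The regrown response minus the parental response was 0.87 ± 0.17 for NLRP3 (adjusted p = 0.0238) and 0.53 ± 0.12 for IL1R1 (adjusted p = 0.0265), and 9.81% of 14267 genes passed this test (4.47% above and 5.33% below 0). Both calls were lost in 7 of the 12 fits that left out 1 library, with adjusted p up to 0.0865 for NLRP3 and 0.0882 for IL1R1. These 7 left out parental untreated replicates 2 or 3, parental knockout replicate 3, regrown untreated replicates 1 or 3, or regrown knockout replicates 1 or 2, and the differences then ranged from 0.75 to 0.98 for NLRP3 and from 0.43 to 0.57 for IL1R1. In each of these 7 fits no gene of the table passed. IL1R2, IL1RAP, IL1RL1 and IL1RN did not pass.

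Did lenalidomide act on these genes within 18 h? In parental cells NLRP3 was higher with lenalidomide, at 184.7, 116.2 and 144.3 CPM, against 68.9, 43.2 and 50.8 CPM with DMSO. The counts behind these values were 62, 46 and 6 with lenalidomide and 24, 15 and 17 with DMSO, and the change was 1.5 ± 0.30 (adjusted p = 0.00404). In this comparison 0.845% of 5796 genes passed (0.673% rose and 0.173% fell). The call was lost without DMSO replicate 2 (1.33, adjusted p = 0.128), without lenalidomide replicate 1 (1.2, 0.171), with DESeq2 (0.0530) and when all 4 groups were fitted together (0.0601). IL1R1 had 297.9, 257.7 and 48.1 CPM with lenalidomide, against 158.0, 158.5 and 119.4 CPM with DMSO. Its change of 0.84 ± 0.26 missed the threshold (adjusted p = 0.169), and without lenalidomide replicate 3, the shallowest library, it was 0.99 with an adjusted p of 0.00340. IL1R2 (0.53 ± 0.23, adjusted p = 0.483) and IL1RAP (0.34 ± 0.33, adjusted p = 0.852) did not pass.

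In regrown pools no member passed with lenalidomide over DMSO, where 0.23% of 5661 genes did, all of them higher. NLRP3 had 49.1, 45.3 and 42.9 CPM with lenalidomide, against 58.5, 16.2 and 7.16 CPM with DMSO, and pool 1 with DMSO was above all the lenalidomide libraries (0.68 ± 0.58, adjusted p = 0.997). IL1R2 had 294.7, 226.6 and 191.6 CPM with lenalidomide, against 139.3, 132.3 and 150.4 CPM with DMSO. These did not overlap, but the change of 0.74 ± 0.28 missed the threshold (adjusted p = 0.801). The difference between the regrown and the parental response to lenalidomide was -0.82 ± 0.64 for NLRP3 and -0.02 ± 0.89 for IL1R1 (adjusted p = 0.9998 for both). It passed for none of 6838 genes with edgeR (0%), of which 285 had an unadjusted p under 0.05, so these data did not show that the responses differed.

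The lower IL1R1 level of regrown cells was also seen in DGE, under both conditions. With DMSO it was 8.36, 29.7 and 53.7 CPM in regrown pools, against 158.0, 158.5 and 119.4 CPM in parental libraries, a change of -2.32 ± 0.36 (adjusted p = 7.902e-05), in a comparison where 6.21% of 5941 genes passed (2.91% rose and 3.3% fell). With lenalidomide it was 49.1, 22.7 and 62.9 CPM in regrown pools, against 297.9, 257.7 and 48.1 CPM in parental libraries, a change of -2.32 ± 0.42 (adjusted p = 0.00127), where 2.78% of 4648 genes passed (1.2% rose and 1.57% fell). The shallow parental replicate 3 fell among the regrown pools. NLRP3 changed by -0.94 ± 0.46 with DMSO (adjusted p = 0.277), and by -2.13 (adjusted p = 0.0103) without regrown pool 1. With lenalidomide it changed by -1.75 ± 0.41 (adjusted p = 0.0144), a call that was lost with DESeq2 (0.0632), without parental lenalidomide replicate 1 (0.295) and without regrown lenalidomide replicate 3 (0.109). IL1RAP changed by 0.48 ± 0.29 with DMSO (adjusted p = 0.423) and -0.13 ± 0.51 with lenalidomide (adjusted p = 0.952). IL1RL1 had few counts in DGE: with DMSO 5, 9 and 5 in regrown pools, against 2, 3 and 5 in parental libraries. That direction was opposite to the one in RNA-seq. With lenalidomide it had 0, 0 and 1 counts in regrown pools, against 0, 2 and 0 in parental libraries. IL1RN had at most 1 count in any DGE library, and neither gene was tested.

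**Figure D3:**
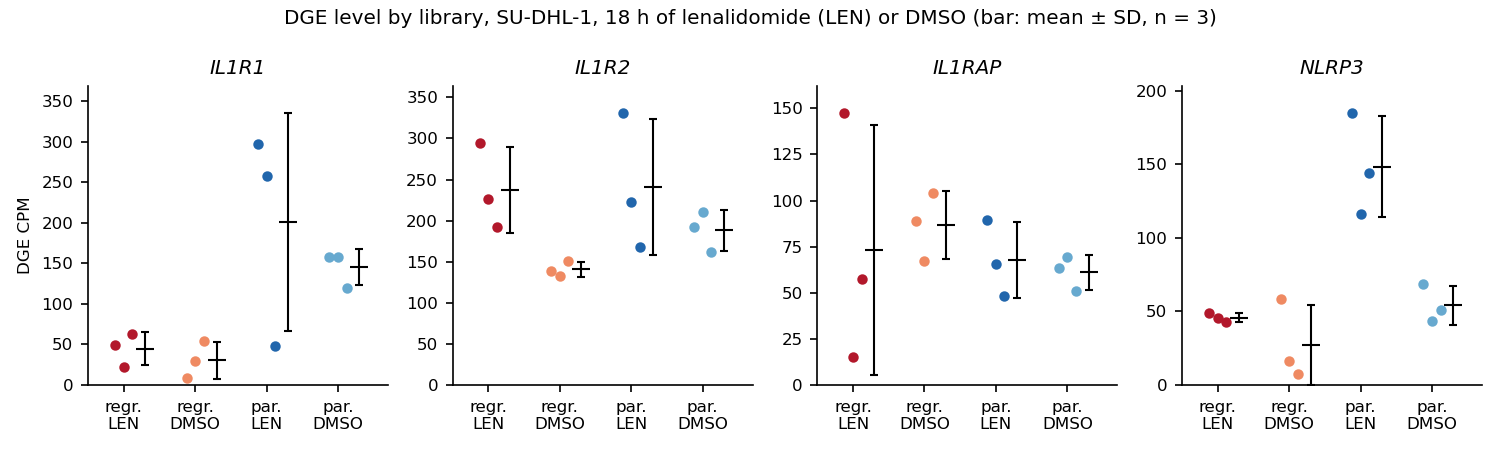
DGE level (y axis, CPM, from 0) of 4 members with lenalidomide (LEN) or DMSO in regrown (regr.) and parental (par.) SU-DHL-1, with each point a library and the bar the mean ± SD of 3. NLRP3 was at 116.2 to 184.7 CPM in parental lenalidomide libraries and at 43.2 to 68.9 CPM in parental DMSO libraries, and parental lenalidomide replicate 3 stood apart for IL1R1.

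How did the genes respond to added CSNK2B? NLRP3 moved in opposite directions in the 2 lines. In SU-DHL-1 it had 70.0, 66.4 and 66.8 CPM with the CSNK2B vector, against 108.4, 108.6 and 109.9 CPM with the empty vector, a change of -0.69 ± 0.04 (adjusted p = 6.092e-11). In KI-JK it had 29.0, 30.5 and 28.5 CPM with the CSNK2B vector, against 12.6, 13.1 and 15.7 CPM with the empty vector, a change of 1.1 ± 0.08 (adjusted p = 1.152e-09). Neither pair of groups overlapped. The KI-JK response minus the SU-DHL-1 response was 1.81 ± 0.09 (adjusted p = 9.189e-16). The lines also differed in serum and in the size of the CSNK2B rise, and were each cultured and counted in a table of their own.

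The other members moved less in SU-DHL-1. IL1R1 had 501.4, 529.4 and 518.9 CPM with the CSNK2B vector, against 597.6, 588.9 and 582.2 CPM with the empty vector, a change of -0.20 ± 0.03 (adjusted p = 0.000421). IL1R2 averaged 88.9 ± 3.8 CPM with the CSNK2B vector and 100.0 ± 2.95 CPM with the empty vector (SD, n = 3 each), a change of -0.17 ± 0.05 (adjusted p = 0.0184). IL1RAP averaged 188 ± 2 CPM with the CSNK2B vector and 208 ± 2 CPM with the empty vector (SD, n = 3 each), a change of -0.15 ± 0.04 (adjusted p = 0.0142). IL1RL1 averaged 8.42 ± 0.94 CPM with the CSNK2B vector and 6.20 ± 0.39 CPM with the empty vector (SD, n = 3 each), a change of 0.44 ± 0.12 (adjusted p = 0.0275). Single libraries decided these last 3 calls. That of IL1R2 was lost without empty vector replicate 2 (0.0964) or 3 (0.0533) or CSNK2B replicate 2 (0.0501) or 3 (0.103), and that of IL1RAP without empty vector replicate 1 (0.116) or 2 (0.0602) or CSNK2B replicate 1 (0.0537). That of IL1RL1 was lost without empty vector replicate 1 (0.0856) or 3 (0.102) or CSNK2B replicate 2 (0.163), and with DESeq2 (0.0865). In all 5 of 5 tested members passed, against 6.74% of 13727 genes (3.39% rose and 3.34% fell).

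In KI-JK, IL1RN rose with NLRP3. It had 9.71, 10.1 and 11.1 CPM with the CSNK2B vector, against 3.35, 2.24 and 4.30 CPM with the empty vector, a change of 1.67 ± 0.17 (adjusted p = 9.331e-08). IL1RAP averaged 263 ± 15 CPM with the CSNK2B vector and 212 ± 7 CPM with the empty vector (SD, n = 3 each), a change of 0.33 ± 0.04 (adjusted p = 1.343e-06). IL1RL1 was near the limit of counting, with 12, 12 and 18 counts with the CSNK2B vector, against 2, 0 and 3 counts with the empty vector (2.94 ± 0.69, adjusted p = 0.00183). IL1R1 averaged 254 ± 6 CPM with the CSNK2B vector and 256 ± 2 CPM with the empty vector (SD, n = 3 each; 0.01 ± 0.03, adjusted p = 0.833). IL1R2 changed by -0.09 ± 0.04 (adjusted p = 0.0744), and passed with scaling by library size alone (-0.11, 0.0281) and without CSNK2B replicate 1 (-0.11, 0.0466). Here 4 of 6 tested members passed, against 35.7% of 14104 genes (18.4% rose and 17.3% fell).

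The difference between the lines' responses also passed for IL1RAP (0.49 ± 0.06, adjusted p = 3.364e-07), IL1RL1 (2.51 ± 0.57, adjusted p = 0.00199) and IL1R1 (0.22 ± 0.05, adjusted p = 0.00227), the last not without a filter on low counts (0.19, adjusted p = 0.0701). It did not pass for IL1R2 (0.10 ± 0.06, adjusted p = 0.304) or IL1RN (-0.40 ± 0.86, adjusted p = 0.811), of which the second had 10 counts with the CSNK2B vector and 2 with the empty vector in SU-DHL-1. For the test of this difference 19.2% of 15564 genes passed (10.7% above and 8.44% below 0).

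**Figure D4:**
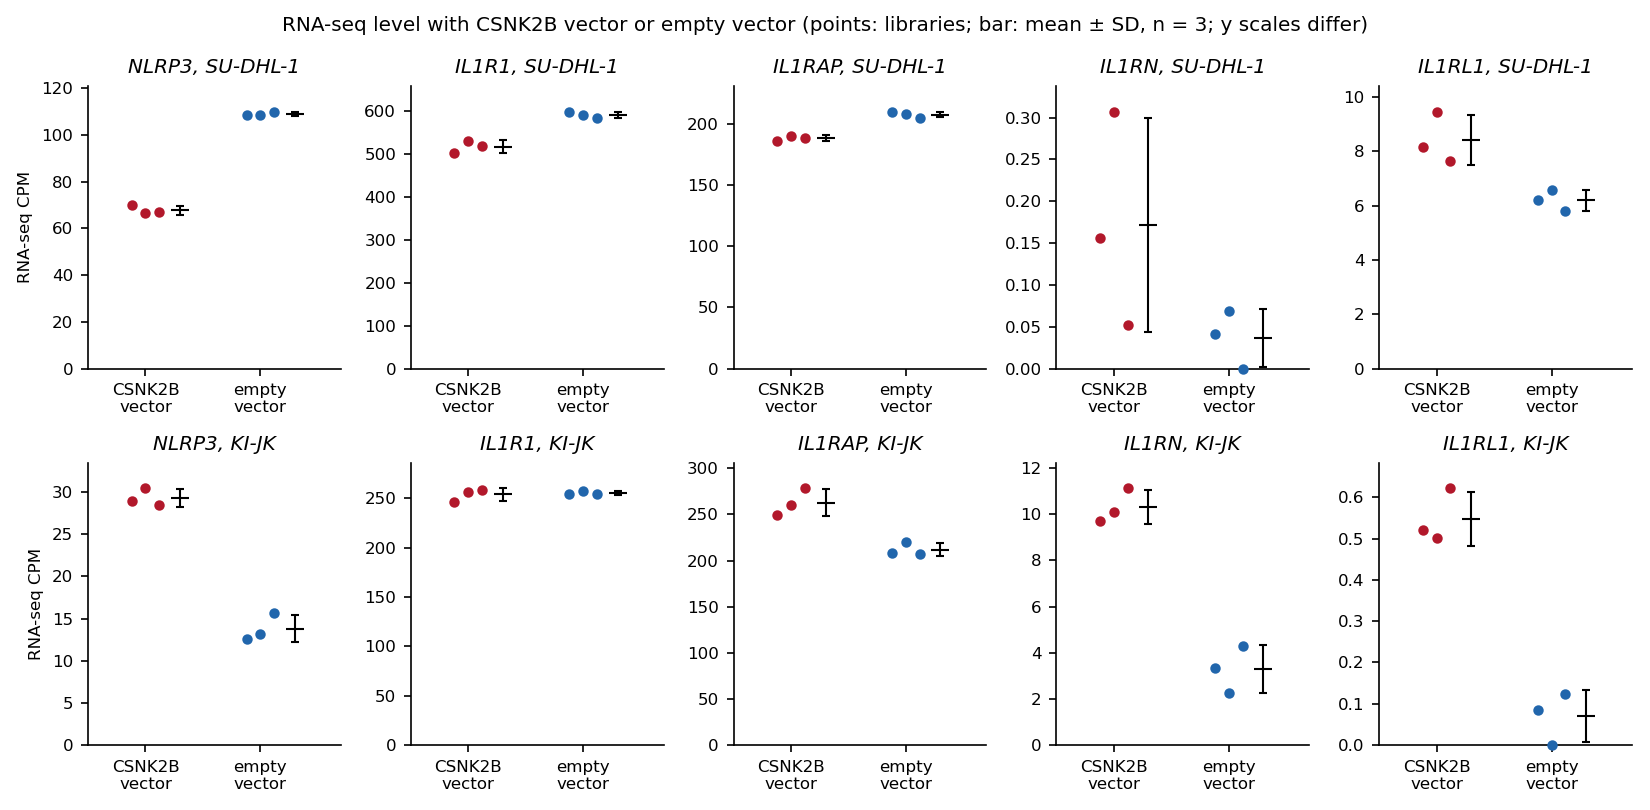
RNA-seq level (y axis, CPM, from 0, with a scale of its own in each panel) of 5 members with the CSNK2B or the empty vector in SU-DHL-1 (top row) and KI-JK (bottom row), with each point a library and the bar the mean ± SD of 3. NLRP3 averaged 67.7 CPM with the CSNK2B vector and 109 CPM with the empty vector in SU-DHL-1, and 29.3 CPM with the CSNK2B vector and 13.8 CPM with the empty vector in KI-JK.

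The cytokines were hardly detected as RNA. IL18 had at most 2 counts in any of the 24 RNA-seq libraries. IL1A had at most 7 counts in an RNA-seq library, and was not tested in any of these tables on its own. IL1B was at 0 in 11 of the 12 ZFP91 libraries and had 1 count in the other, which was regrown knockout replicate 2. In KI-JK it had 0, 4 and 4 counts with the CSNK2B vector, against 0, 58 and 3 counts with the empty vector, so that 1 library held nearly all its reads. IL1B had 0, 8 and 3 counts with the CSNK2B vector and none with the empty vector in SU-DHL-1. No fold change from RNA-seq alone is given for these genes.

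Beside the members, 57 other genes of the pathway were followed: related ligands, related receptors, the adaptors and kinases below the receptors, inflammasome components, and genes known to be induced by IL-1. Between regrown and parental cells these moved both ways. In PRO-seq 8 rose and 6 fell of 34 tested (median 0.07, against 0.02 over all genes), that is 41.2%, against 30.2% of all genes. In RNA-seq without doxycycline 10 rose and 6 fell of 34 (median 0.03), that is 47.1%, against 43.7% of all genes. Of the receptors, IL18RAP (3.26 ± 0.25 in RNA-seq) and SIGIRR, an inhibitory receptor (1.95 ± 0.25 in RNA-seq and 1.6 ± 0.32 in PRO-seq), rose, 2 of 4 tested. Of the 12 adaptors tested in RNA-seq, MYD88, the adaptor that joins the receptor to the kinases, rose by 0.61 ± 0.11 and the kinase genes IRAK1 and IRAK2 by 0.44 ± 0.10 and 1.74 ± 0.50, while TAB2, which activates the kinase TAK1, fell by 0.60 ± 0.09.

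Of 9 inflammasome genes in the same comparison, AIM2, a sensor of cytosolic DNA, rose by 0.70 ± 0.13 and PSTPIP1 by 0.36 ± 0.12, while CASP1, which encodes caspase-1, fell by 0.38 ± 0.09 and GSDMD, the pore former gasdermin D, by 0.27 ± 0.09. Of 9 response genes, 4 rose and 3 fell. NFKBIZ, which encodes a nuclear partner of NF-kB, rose by 1.89 ± 0.27 in RNA-seq and 2.2 ± 0.11 in PRO-seq, and TNFAIP3, which encodes the NF-kB inhibitor A20, fell by 1.22 ± 0.15 in RNA-seq and 0.53 ± 0.14 in PRO-seq. The chemokine gene CCL20 did not pass in this RNA-seq comparison (-0.21 ± 0.30, adjusted p = 0.612), and it rose by 1.92 ± 0.18 in PRO-seq and by 2.48 ± 0.47 in DGE with DMSO. After ZFP91 knockout in parental cells none of 34 pathway genes passed, where only 0.427% of all genes did. In regrown cells 6 rose and 3 fell of 34, that is 26.5%, against 31.9% of all genes, such as CCL20 (1.45 ± 0.25) and BIRC3, which encodes an inhibitor of apoptosis (-0.95 ± 0.20). With the length score as a covariate no gene passed in that comparison, so these 9 calls were lost. The score did not overlap between those groups, so that fit cannot separate score from group. With lenalidomide in parental cells NFKBIA, the NF-kB inhibitor gene, was the 1 gene of 14 tested that passed (-1.19 ± 0.23), against 0.845% of all genes.

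With the CSNK2B vector 1 pathway gene rose and 4 fell of 36 tested in SU-DHL-1, that is 13.9%, against 6.74% of all genes. In KI-JK 6 rose and 9 fell of 39, that is 38.5%, a share near the 35.7% of all genes. BIRC3 fell in both lines, by 0.79 ± 0.06 in SU-DHL-1 and 0.47 ± 0.05 in KI-JK, as did SIGIRR, by 0.63 ± 0.18 and 0.69 ± 0.12. In KI-JK, where NLRP3 rose, GSDMD fell by 0.60 ± 0.04, NLRP1, another inflammasome sensor, by 0.58 ± 0.09, and AIM2 rose by 0.23 ± 0.06. TNFAIP3 rose by 0.46 ± 0.06 in SU-DHL-1. CASP1 fell by 0.23 ± 0.04 in SU-DHL-1.

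**Figure D5:**
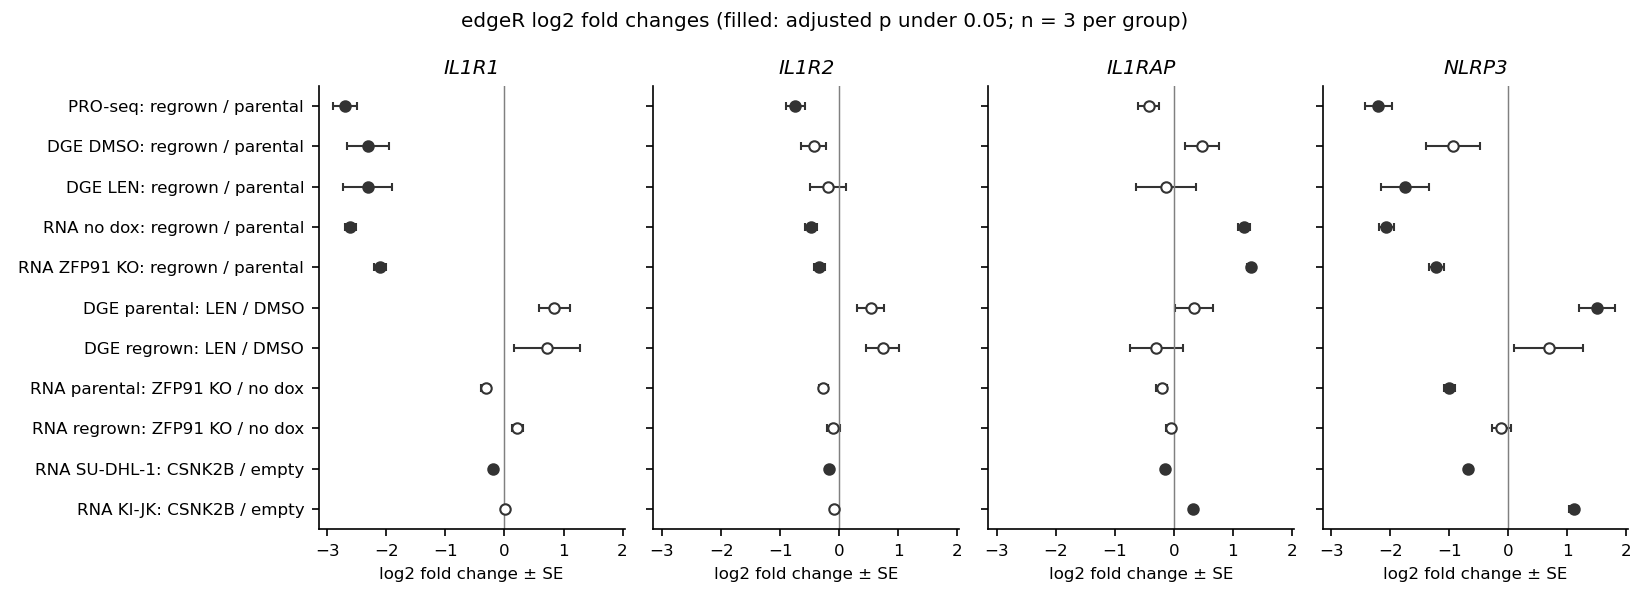
Log2 fold changes ± SE (x axis) of IL1R1, IL1R2, IL1RAP and NLRP3 in 11 comparisons (rows), each of 3 against 3 libraries, filled where the edgeR adjusted p was under 0.05. IL1R1 was lower in regrown than in parental cells in all 5 such rows, and NLRP3 changed sign between rows.

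Markers of other cell types are given here over whole lists. Of 9 myeloid markers few had enough reads to be tested, and CD163, a scavenger receptor of macrophages, held most of the summed level in parental SU-DHL-1. In regrown over parental RNA-seq without doxycycline 3 were tested and 2 fell, where 21.1% of all genes fell past the threshold. CD163 fell by 5.70 ± 0.15 and CSF1R, a growth factor receptor, by 1.07 ± 0.19, while ITGAM, an integrin gene, had -0.05 ± 0.71 (adjusted p = 0.966). The summed level of the 9 was 11.7 to 15.3 CPM in regrown and 323 to 338 CPM in parental libraries, of which CD163 made 5.66 and 313 CPM on average. CD14 had at most 0.154 CPM and LYZ 0 in those libraries. After knockout all 3 tested fell, where 19.8% of all genes did, and in PRO-seq both of 2 tested, where 16.2% did.

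With lenalidomide in parental cells CD163 was the 1 myeloid marker tested, and it rose by 1.39 ± 0.24, where 0.673% of all genes rose. With ZFP91 knockout in parental cells none of 3 passed, where 0.427% of all genes did. CD163 averaged 387 CPM in knockout and 313 CPM in untreated libraries there. With the CSNK2B vector in SU-DHL-1, where NLRP3 fell, none of 3 passed (CD163 had -0.01 ± 0.03, adjusted p = 0.909), against 6.74% of all genes. In KI-JK, where NLRP3 rose, 1 of 4 tested rose and 1 fell, against 18.4% of all genes that rose and 17.3% that fell. CD163 rose by 2.59 ± 0.09, ITGAM fell by 0.74 ± 0.25, and CSF1R had -0.04 ± 0.04 (adjusted p = 0.426). The summed myeloid level there was 192 to 198 CPM with the CSNK2B vector and 169.9 to 175 CPM with the empty vector.

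Epithelial and stromal markers moved in some of the same comparisons. In KI-JK 2 of 3 tested markers fell with the CSNK2B vector, both of them keratin genes, where 17.3% of all genes fell. KRT8 fell by 2.37 ± 0.64, and KRT18 fell by 2.41 ± 0.66. The summed level of all 7 markers was 1.92 to 10.1 CPM with the CSNK2B vector and 5.58 to 29.6 CPM with the empty vector, ranges that overlap. PAX5, the 1 B-cell marker tested in KI-JK, fell by 0.36 ± 0.10. In SU-DHL-1 the collagen gene COL1A1 fell with the CSNK2B vector by 1.79 ± 0.33, 1 of 3 tested, where 3.34% of all genes fell. The summed level there was 12 to 13.7 CPM with the CSNK2B vector and 14.2 to 24.2 CPM with the empty vector. COL1A1 fell by 1.56 ± 0.50 with knockout in regrown cells, 1 of 3 tested, where 15.7% of all genes fell. KRT18 fell in regrown over parental cells by 1.13 ± 0.28 in PRO-seq, 1 of 2 tested, where 16.2% fell. It also fell by 0.59 ± 0.19 in RNA-seq after knockout, 1 of 3 tested, where 19.8% fell. None of 3 tested passed in regrown over parental RNA-seq without doxycycline, and none of 4 with knockout in parental cells. No endothelial marker had enough reads to be tested. The part of these markers in the members' changes was not tested. In bulk RNA, fewer cells with a transcript and less transcript per cell cannot be told apart.

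Over the 12 ZFP91 RNA-seq libraries, the genes most like each member, by Pearson's r of log2 CPM among 11295 genes with a mean log2 CPM of at least 1, were as follows. For IL1R1 they were ADAMTS18 and CMAHP (both r = 0.997) and AC009139.1 (r = 0.996), and for NLRP3 FBXO32 (r = 0.991), MRFAP1 (r = 0.9845) and SLC2A5 (r = 0.984). For IL1RAP they were CHSY1, MRS2 and FRMD4B (r = 0.994, 0.993 and 0.992). For IL1R2 they were LMNA, MRFAP1 and LDHA (r = 0.977, 0.975 and 0.973), and for IL1RL1 NUBPL, OSBP2 and TMEM198 (r = 0.986, 0.975 and 0.972). These values describe 4 groups of libraries that share cells and preparation, and the gap between regrown and parental groups enters each r.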

How the data were processed

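The authors deposited counts per gene, whole numbers with no normalization, for 42 libraries in 5 tables. The 38 ChIP-seq samples were not analysed here. Per the submitters' processing notes, the tools for PRO-seq were cutadapt 1.14, Bowtie 1.2.2 and featureCounts 1.6.2 on hg38, those for DGE included Bowtie2 2.2.3 on hg19, and those for RNA-seq included STAR 2.6.1d on hg38. How RNA-seq reads were assigned to genes, whether strand was used, and whether DGE reads were collapsed by molecular identifier were not given in the sources used here, so overlapping genes may share reads.

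Counts were tested with edgeR 4.0.16 under R 4.3.3 (filterByExpr, TMM, glmQLFit and glmQLFTest), two-sided and on only the libraries of the groups concerned. P-values were adjusted by Benjamini-Hochberg over every gene in the fit, with a threshold of 0.05. The SE of a log2 change is its size over the root of the F statistic. CPM values are counts scaled to a common library total. There were 14 planned comparisons and 1 that was added after the data were seen. Alternatives were DESeq2 1.42.0, other scalings and filters, a fit of all 4 groups, the replicate number as a block, and each library left out. The length score as a covariate was added after the data were seen, only where pairs of ZFP91 RNA-seq groups were compared. Where the score did not overlap between the groups, a call lost in that fit cannot be assigned to score or group. In PRO-seq 17711 of 17792 identifiers took a symbol from the reference. Replicates differed by more than sampling noise in every pair, the closest having a chi-square of 1.3353 per degree of freedom.

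Same-numbered regrown libraries came from the same pool, per the labels. Their deviations from the group means correlated at -0.131 to 0.172 between lenalidomide and DMSO, and at 0.01 to 0.181 between knockout and no doxycycline. Elsewhere the labels give only a replicate number, though parental libraries were numbered in the same form as regrown ones. Correlations of same-numbered parental libraries were -0.104 to 0.4 between knockout and no doxycycline, and 0.003 to 0.114 between lenalidomide and DMSO. Between regrown and parental PRO-seq libraries they were -0.012 to 0.255.

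The members and gene lists were chosen with earlier results of these data known, so the adjusted p-values of members describe the fits and are no independent support. Beside the members, up to 4 genes past the threshold were named per pathway list and comparison, by p, and the 3 genes most correlated with each member.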

Additional observations from a re-analysis of the deposited data

Results flagged for a closer look

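Results are listed here where a test of the difference between 2 responses passed, and no explanation was tested. The response to ZFP91 knockout in regrown minus parental cells was 0.87 for NLRP3 and 0.53 for IL1R1 (log2). Both of these calls were lost in most fits that left out a library, and the length score was not tried as a covariate. The response to the CSNK2B vector in KI-JK minus SU-DHL-1 was 1.81 for NLRP3, 2.51 for IL1RL1, 0.49 for IL1RAP and 0.22 for IL1R1, and the 2 NLRP3 responses had opposite signs. The regrown over parental change in RNA-seq minus that in PRO-seq was 1.49 for IL1RAP.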

How the results depend on the processing

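Of 75 member results, 12 changed sign under at least 1 alternative, and 0 of these 12 had passed the threshold in edgeR or passed it, with the changed sign, under an alternative. Of the 37 past the threshold, 23 kept their call under every alternative in which the gene was tested. Among these, IL1R1 in regrown over parental DGE with lenalidomide was tested in 11 of 13 alternatives. IL1RL1 with the CSNK2B vector in KI-JK was tested in 10 of 12. The number of members called changed by more than 1.5 times, or to or from 0, in the following comparisons, and the cause was not tested. For lenalidomide in parental cells it was 1, against 0 with DESeq2, 0 with all 4 groups in 1 fit, and 0 to 2 when 1 library was left out. For regrown over parental cells with lenalidomide it was 2, against 1 with DESeq2 and 0 to 2 without 1 library, and with DMSO it was 1, against 1 to 2 without 1 library. For ZFP91 knockout in parental cells it was 1, against 2 with DESeq2, 4 with the length score as a covariate and 0 to 1 without 1 library. For knockout in regrown cells it was 1, against 0 with a filter at 1 CPM in 3 libraries, 0 with that covariate and 0 to 1 without 1 library. For the difference between those responses it was 2, against 0 to 2 without 1 library, and for the CSNK2B vector in SU-DHL-1 it was 5, against 3 to 4 without 1 library. Smaller changes were seen in PRO-seq (4, range 3 to 5 over the alternatives), in regrown over parental RNA-seq without doxycycline (6, range 4 to 6) and after knockout (5, range 4 to 5), and with the CSNK2B vector in KI-JK (4, range 3 to 5).

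The sign changes were these, with log2 values and ranges over fits without 1 library. For lenalidomide in regrown cells IL1RAP, at -0.30, ranged from -0.998 to 0.096. For regrown over parental DGE with lenalidomide IL1R2, at -0.19, ranged from -0.35 to 0.11, and IL1RAP, at -0.13, from -0.82 to 0.25. For the difference between the lenalidomide responses NLRP3, at -0.82, ranged from -1.19 to 0.38, and IL1R1, at -0.02, from -0.51 to 0.58, with 0.0044 by library size only and 0.023 with DESeq2. For knockout in regrown cells IL1RAP, at -0.05, ranged from -0.087 to 0.011, and was 0.23 with the covariate, with which IL1RL1, at 0.37, was -1.03. For the difference between the knockout responses IL1RL1, at -0.06, ranged from -0.39 to 0.50, with 0.021 by library size only. For the CSNK2B vector in KI-JK IL1R1, at 0.01, ranged from -0.0014 to 0.027, with -0.0093 by library size only, and for the difference between the lines IL1RN, at -0.40, ranged from -0.88 to 0.30. For RNA-seq minus PRO-seq IL1R1, at -0.03, ranged from -0.14 to 0.29, with 0.078 under DESeq2 size factors, 0.078 with DESeq2 and 0.012 with the replicate block, and NLRP3, at 0.01, ranged from -0.10 to 0.48.

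A fit with the replicate number as a block ended 1 member call, that of IL1A in PRO-seq (0.99, adjusted p = 0.0526), where regrown and parental libraries share only a number. With the block 2257 genes passed for the difference between the knockout responses, against 1399 without it.

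The number of genes called over a whole table moved by more than 1.5 times under at least 1 alternative in 12 comparisons. In PRO-seq it was 4973, and 3245 without parental replicate 2. For lenalidomide it was 49 in parental cells (25 to 105 over the alternatives, 26 with DESeq2) and 13 in regrown cells (7 to 20), and 0 for the difference (0 to 1). For regrown over parental DGE it was 369 with DMSO (240 with DESeq2, 222 at the lowest) and 129 with lenalidomide (59 with DESeq2, 23 to 244). For knockout it was 57 in parental cells (198 with DESeq2, 231 with no filter, 1193 with the covariate, 0 to 110 without 1 library) and 4186 in regrown cells (2410 to 2464 without knockout pool 1 or 2, and 0 with the covariate). For the difference between the knockout responses, 1399, it was 2410 with DESeq2, 2333 with no filter and 0 to 3355 without 1 library. For regrown over parental RNA-seq it was 5850, and 2376 with the covariate. For the CSNK2B vector in SU-DHL-1 it was 925, and 582 without empty vector replicate 1. For RNA-seq minus PRO-seq it was 3068, and 1860 without parental RNA-seq replicate 3 and 1975 without parental PRO-seq replicate 2. Totals of 41571 to 395827 counts limit what DGE can show.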
